A study of Mus musculus with 9 samples.

Results

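Heat shock proteins of the cytosol and mitochondria were followed through 10 genes, taken by symbol from the 54281 genes of the count table: Hspa1a, Hspa1b, Hspa8, Hsp90aa1, Hsp90ab1, Hspd1, Hspe1, Hsph1, Dnaja1 and Dnajb1. All 10 were in the table and all 10 were among the 15713 genes with enough counts to be tested. The RNA was that of lung macrophages washed out by bronchoalveolar lavage with massage from 9 wild-type mice, all females and 12 weeks old (strain name not given here). In a whole-body chamber 3 mice breathed air, and 6 breathed ozone, an oxidant pollutant, at 0.8 ppm for 3 h, of which 3 were killed 24 h and 3 killed 72 h after exposure. All were killed under ketamine and xylazine, their red cells were lysed before RNA extraction, and no source used here gives the time at which the air mice were killed. Total RNA libraries held 47095543 to 60248305 estimated counts.

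Heat shock proteins are chaperones, which bind unfolded or aggregating proteins and help them fold. In the cytosol, J proteins such as DNAJA1 and DNAJB1 pass clients to the HSP70 proteins (HSPA8, made constantly, and HSPA1A and HSPA1B, made on stress), HSPH1 resets HSP70 by exchanging its nucleotide, and some clients move on to the HSP90 proteins HSP90AA1 and HSP90AB1. In the mitochondrial matrix HSPD1 (HSP60) forms a folding chamber that HSPE1 (HSP10) closes. The transcription factor HSF1 switches many of these genes on during heat or oxidative stress by binding heat shock elements, repeats of the letters GAA in alternating orientation.

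Levels are given as CPM, the count relative to library size after TMM scaling, and changes as log2 fold changes ± SE from an edgeR quasi-likelihood fit over all 9 libraries. A gene is referred to as called when its Benjamini-Hochberg adjusted p, taken over all genes tested, was under 0.05. Means are given ± SD with n = 3 mice per group.

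The promoter sequences show what some of the members share upstream. RefSeq windows on GRCm38.p6 were at hand for 7 of the 10 members. RefSeq gives some genes several start sites, so the 7 members had 12 windows. In the 250 bases before at least 1 of their start sites, 6 of the 7 members held a match to the shortest heat shock element, GAANNTTC or TTCNNGAA (each is its own reverse complement, so both strands are covered), which 14.5% of 27025 genes held in windows of the same length. The longer form, GAANNTTCNNGAA on one strand or TTCNNGAANNTTC on the other, which contains the shorter one, was found in Hspd1 and Hspe1 and in 0.514% of genes. Dnajb1 had no match in its windows, nor had 1 of 2 windows of Hspd1 and 2 of 3 of Dnaja1. The matches of Hspd1, Hsph1 and Dnaja1 lie inside the gene span of GENCODE given with their levels, so that they are upstream of a RefSeq start and not of the outermost annotated one. A match is a description of letters, not a measured binding site.

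The first pair of sequences is the 250 bases upstream of Hspa1a and Hspa1b, which lie on the minus strand of chromosome 17 and are shown because they are nearly the same. They were identical at 247 of 250 positions, or 98.8%. The transcripts of the pair matched at 99.1% over 2200 bases, and it is this match that makes their reads hard to count apart. Capitals mark the shortest heat shock element, 104 bases before the start in both.
Hspa1a, chr17:34972157-34972406, minus strand: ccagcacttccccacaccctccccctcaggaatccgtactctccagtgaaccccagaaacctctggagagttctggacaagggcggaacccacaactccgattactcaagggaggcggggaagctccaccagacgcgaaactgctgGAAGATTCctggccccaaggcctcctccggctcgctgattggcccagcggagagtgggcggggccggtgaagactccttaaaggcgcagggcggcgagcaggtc
Hspa1b, chr17:34959239-34959488, minus strand: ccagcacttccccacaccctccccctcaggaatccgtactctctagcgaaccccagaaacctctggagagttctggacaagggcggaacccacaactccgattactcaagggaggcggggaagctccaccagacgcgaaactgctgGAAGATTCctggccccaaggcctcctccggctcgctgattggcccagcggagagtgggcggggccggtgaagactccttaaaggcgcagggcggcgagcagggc

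Hspd1 and Hspe1 stand head to head on chromosome 1, and their annotated ends overlap by 112 exonic bases on opposite strands, where reads can be told apart only if the counting used strand, which no source used here states. The same 18 bases held 3 overlapping short elements and 2 long ones in a window of each gene. They lay 144 bases before the inner of the RefSeq starts of Hspd1, within its annotated span, and 89 bases before the start of Hspe1. The elements of Hsph1 and Dnaja1 are shown beside it, with capitals marking the matched letters.
Hspd1, chr1:55088053-55088082, minus strand: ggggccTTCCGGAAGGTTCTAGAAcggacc
Hspe1, chr1:55088053-55088082, plus strand: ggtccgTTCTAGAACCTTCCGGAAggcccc
Hsph1, chr5:149636351-149636380, minus strand: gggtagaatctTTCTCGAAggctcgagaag
Dnaja1, chr4:40722333-40722362, plus strand: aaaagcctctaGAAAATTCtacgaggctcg

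Markers of alveolar macrophages, the labelled cell type's resident form in the air spaces, were present in all 9 libraries: the 12 listed genes, among them Siglecf, Ear1 and Chil3, summed to 22100 to 35500 CPM. A pair of ozone libraries stood apart, replicate 2 at 24 h and replicate 1 at 72 h. Summed over 10 genes each, B cell markers were 1640 and 1040 CPM in them against 158 to 200 CPM in the other 7 libraries (most of the latter from Cd22), and those of serous cavity macrophages 680 and 856 CPM against 11.1 to 16.7 CPM. Red cell markers were 2910 and 2510 CPM against 12.2 to 855 CPM, and these 2 libraries held the lowest sums of alveolar macrophage markers. Air replicate 2 went against the labelled sex, with Xist at 2.42 CPM against 887 to 1480 CPM elsewhere. Results are therefore also given without the 2 ozone libraries and without all 3. In RNA from a mixed lavage, fewer cells of a type and less RNA per cell cannot be told apart.

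Levels between genes were compared per kilobase of merged exons (the plot of levels per kilobase). Hspa8 was the most abundant member, at 609 ± 76.1 CPM per kilobase in air, followed by Hsp90ab1, the constitutive HSP90, at 478 ± 3.62. Next stood Hspd1 at 79.05 ± 3.48, Hsp90aa1, the inducible HSP90, at 71.0 ± 2.35, and Hspe1 at 39.3 ± 5.03. The J proteins Dnaja1 and Dnajb1 followed at 13.6 ± 2.03 and 11.5 ± 2.01, and Hsph1 at 8.44 ± 0.792. The stress-inducible pair was lowest, Hspa1b at 1.12 ± 0.606 and Hspa1a at 0.894 ± 0.380.

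In air the ranges of neighbours in this order did not overlap except between Dnaja1 and Dnajb1 and between Hspa1b and Hspa1a. At 24 h Hsp90aa1 stood above Hspd1, at 98.1 to 104 against 92.9 to 96.2 CPM per kilobase, and at 72 h their ranges overlapped. With the longest coding transcript as the length, Hspd1 and Hsp90aa1 in air were 86.2 and 85.0 CPM per kilobase, and Hsph1, at 16.1, stood above Dnajb1, at 12.3.

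**Figure D1:**
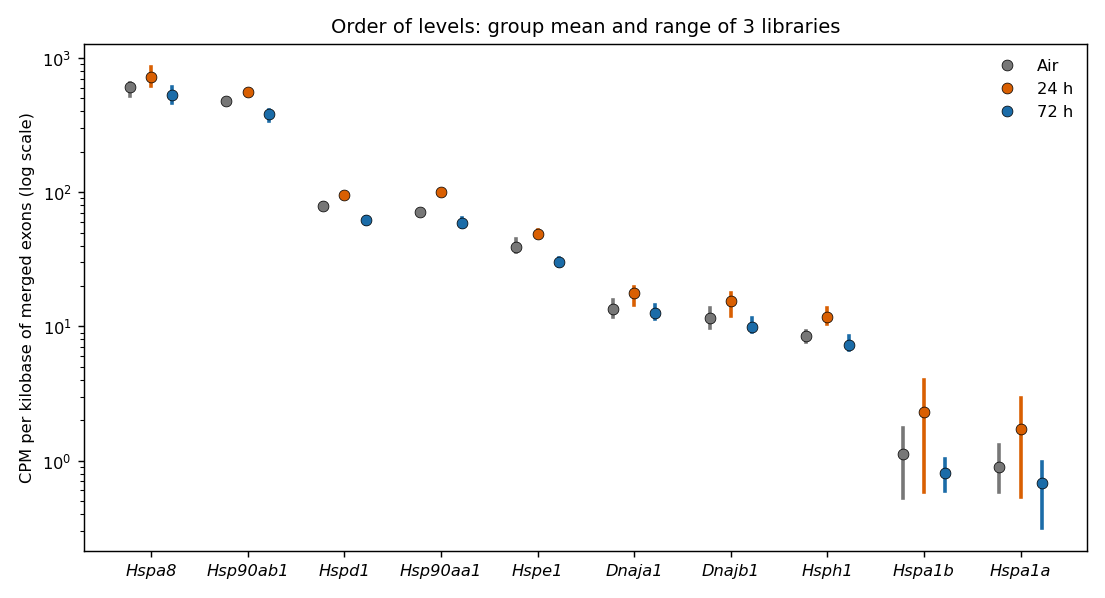
Level of each heat shock protein gene per kilobase of merged exons on a log axis, in CPM per kilobase, with the group mean as a point and a line from the lowest to the highest of 3 libraries, for air, 24 h and 72 h. Hspa8 and Hsp90ab1 stand at 609 and 478 in air, and Hspa1a and Hspa1b near 1.

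All 10 members had their highest group mean at 24 h and their lowest at 72 h, with air between. From 24 h to 72 h 6 of the 10 were called lower and 0 higher, where 12.8% of all genes tested were called lower and 5.39% higher. Against air 1 of 10 was called lower at 72 h, where 3.77% of all genes tested were, and 0 of 10 were called at 24 h, where 0.00636% were. The joint test for any difference among the 3 groups called 5 of 10 (Hsp90aa1, Hsp90ab1, Hspd1, Hspe1 and Hsph1), where 13.2% of all genes tested were called. All contrasts come from 1 fit and share their libraries, so the 3 sets of changes are not independent of each other.

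**Figure D2:**
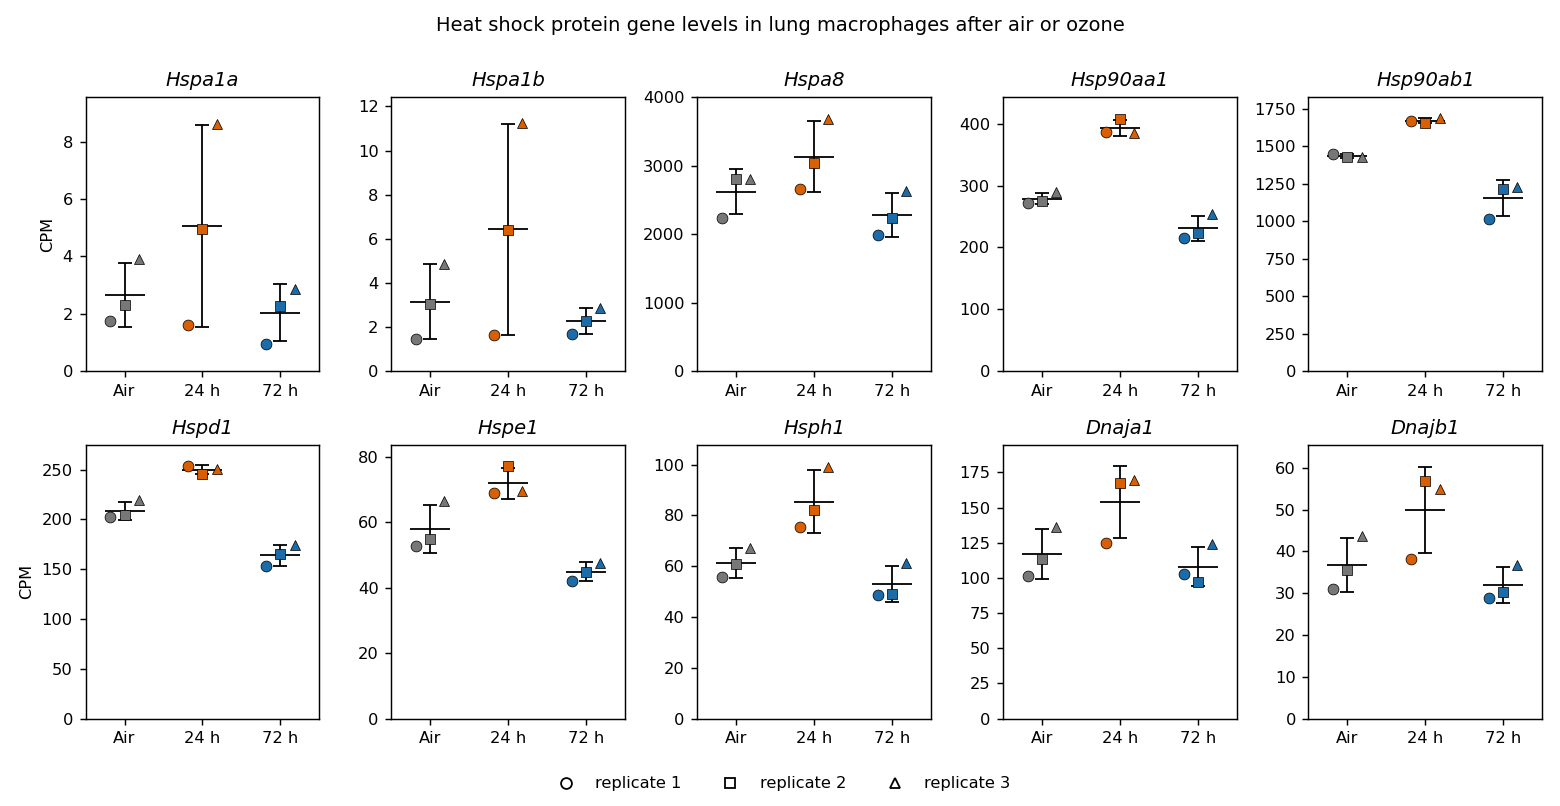
CPM of each heat shock protein gene in every library, on axes that start at 0, with symbols for the replicate, a bar for the mean and whiskers for the SD of 3 mice. For Hsp90aa1, Hsp90ab1, Hspd1 and Hspe1 the 24 h libraries stand above and the 72 h libraries below all air libraries.

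In air the HSP90 genes had the most even levels among mice, with coefficients of variation of 3.31% for Hsp90aa1 and 0.758% for Hsp90ab1; at 72 h these were 8.93% and 10.3%, above the 6.48% of Hspd1 and 6.4% of Hspe1. Hsp90aa1 (ENSMUSG00000021270.13, chromosome 12, 110690605 to 110702728, minus strand) was 272, 276 and 289 CPM in air, 386, 408 and 386 at 24 h, and 215.5, 223 and 254.5 CPM at 72 h. No library of any group overlapped another group. Its level fell by 0.77 ± 0.08 on the log2 scale from 24 h to 72 h, a 1.7-fold difference, with edgeR adjusted p = 0.00366. Against air it was 0.50 ± 0.08 at 24 h (adjusted p = 0.112) and -0.27 ± 0.08 at 72 h (adjusted p = 0.0690), neither called.

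Hsp90ab1 (ENSMUSG00000023944.14, chromosome 17, 45567775 to 45573271, minus strand) was 1445, 1424 and 1430 CPM in air, 1668, 1652 and 1689 at 24 h, and 1016, 1214 and 1228 CPM at 72 h. Its groups did not overlap either, and the lowest value was that of replicate 1 at 72 h, a library with markers of other cells. It fell from 24 h to 72 h by 0.53 ± 0.09 on the log2 scale (edgeR adjusted p = 0.00795). Against air the log2 changes were 0.22 ± 0.09 at 24 h and -0.31 ± 0.09 at 72 h (adjusted p = 0.305 and 0.0682).

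The mitochondrial pair moved alike. Hspd1 (ENSMUSG00000025980.14, chromosome 1, 55077835 to 55088243, minus strand) was 202, 205 and 219 CPM in air, 254, 245 and 250.5 at 24 h, and 153, 165 and 174 CPM at 72 h. Hspe1 (ENSMUSG00000073676.4, chromosome 1, 55088132 to 55091307, plus strand) was 52.6, 54.8 and 66.4 CPM in air, 68.8, 77.2 and 69.5 at 24 h, and 41.9, 44.9 and 47.7 CPM at 72 h. In both genes every 24 h library stood above, and every 72 h library below, all 3 air libraries. From 24 h to 72 h Hspd1 fell by 0.61 ± 0.07 and Hspe1 by 0.68 ± 0.10 on the log2 scale (edgeR adjusted p = 0.00374 and 0.00633).

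Hspd1 was also the 1 member called against air at 72 h, where it was lower by -0.35 ± 0.07 on the log2 scale (edgeR adjusted p = 0.0294). That call ended with most single libraries left out: without air replicate 1, 2 or 3 (adjusted p = 0.0595, 0.0914 and 0.10), replicate 1 at 24 h (0.0568), or replicate 1, 2 or 3 at 72 h (0.0911, 0.119 and 0.0637). It held without the 2 libraries with other cells (adjusted p = 0.0319) and not without all 3 (0.0596), with upper quartile scaling (0.0545) or with no filter on low counts (0.0515). Hspe1 against air at 72 h was -0.37 ± 0.10 (adjusted p = 0.0589; 0.0457 without replicate 2 at 24 h).

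Among the HSP70 proteins, Hspa8 (ENSMUSG00000015656.17, chromosome 9, 40800984 to 40810087, plus strand) was 2240, 2808 and 2807 CPM in air, 2665, 3035 and 3688 at 24 h, and 1987, 2230 and 2630 CPM at 72 h. The 72 h libraries lay below the 24 h libraries, and both overlapped air. None of its changes was called: 72 h against 24 h gave a log2 fold change of -0.46 ± 0.16 (edgeR adjusted p = 0.0788), with a 95% interval of -0.81 to -0.10 that is not adjusted for the number of genes. DESeq2 gave adjusted p = 0.0246 for the same contrast.

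Hspa1a and Hspa1b were low and differed several-fold between mice of a group. Hspa1a (ENSMUSG00000091971.3, chromosome 17, 34969190 to 34972156, minus strand) was 1.73, 2.32 and 3.91 CPM in air, 1.60, 4.96 and 8.62 at 24 h, and 0.936, 2.28 and 2.88 CPM at 72 h. Hspa1b (ENSMUSG00000090877.3, chromosome 17, 34956436 to 34959238, minus strand) was 1.48, 3.06 and 4.87 CPM in air, 1.64, 6.40 and 11.2 at 24 h, and 1.67, 2.28 and 2.88 CPM at 72 h. Replicate 1 at 24 h stood at the level of the lowest air library in both, and replicate 3 at 24 h was the highest of all 9.

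Since reads of this pair can be divided between near-identical copies, their sum is the safer measure. The sum of the pair was 5.79 ± 2.81 CPM in air, 11.5 ± 8.31 CPM at 24 h and 4.31 ± 1.59 CPM at 72 h. The coefficient of variation of the single genes at 24 h was 69.4% and 74.6%, against 3.25% for Hsp90aa1 and 1.12% for Hsp90ab1. Fitted as 1 gene, the pair's log2 change from air was 0.99 ± 0.66 at 24 h and -0.43 ± 0.66 at 72 h, and from 24 h to 72 h it was -1.42 ± 0.67 (edgeR adjusted p = 0.472, 0.714 and 0.190). The spread between mice was thus too wide to call the largest point estimates among the members. For Hspa1a alone the 95% interval of 24 h against air ran from -0.56 to 2.42.

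Hsph1 and the J proteins lay between these patterns. Hsph1 (ENSMUSG00000029657.15, chromosome 5, 149614287 to 149636376, minus strand) was 55.9, 60.8 and 67.3 CPM in air, 75.4, 82.0 and 99.1 at 24 h, and 48.6, 49.1 and 61.3 CPM at 72 h. All 24 h libraries stood above the air and the 72 h libraries, while air and 72 h overlapped. It fell from 24 h to 72 h by 0.69 ± 0.13 on the log2 scale (edgeR adjusted p = 0.0111), a call that ended without replicate 2 at 72 h (adjusted p = 0.0550) and without the 3 doubted libraries (0.0593). Against air at 24 h it was 0.48 ± 0.13 (adjusted p = 0.178).

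Dnajb1, a stress-inducible J protein of the cytosolic HSP70 system (ENSMUSG00000005483.10, chromosome 8, 83608193 to 83612653, plus strand), was 31.1, 35.7 and 43.8 CPM in air, 38.2, 56.8 and 55.0 at 24 h, and 28.9, 30.3 and 36.8 CPM at 72 h. The 72 h libraries lay below the 24 h libraries, and air overlapped both. Its fall from 24 h to 72 h, 0.64 ± 0.18 on the log2 scale, was the weakest call (edgeR adjusted p = 0.0443). It was lost without air replicate 2 (adjusted p = 0.0712), replicate 2 or 3 at 24 h (0.114 and 0.106), or replicate 1, 2 or 3 at 72 h (0.118, 0.142 and 0.0609), and without the 2 libraries with other cells, at -0.45 ± 0.22 (0.206). It was also lost with DESeq2 size factors (0.0515), upper quartile scaling (0.0635), no filter on low counts (0.101) and only the 6 libraries compared (0.0662).

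Dnaja1 (ENSMUSG00000028410.13, chromosome 4, 40722150 to 40737149, plus strand) was 101, 114 and 136 CPM in air, 125, 167 and 170 at 24 h, and 103, 97.4 and 124 CPM at 72 h. Its log2 change from 24 h to 72 h was -0.51 ± 0.16 and just missed the threshold (edgeR adjusted p = 0.0537), passing it without air replicate 3 (0.0477) or replicate 1 at 24 h (0.0399). Dnaja1 is the member most exposed to copies: 8 annotated pseudogenes resemble its transcript and took 7.0% to 10.1% of the counts of gene and copies together, against at most 0.742% for any other member. Exons of Dnaja1 also overlap by 608 bases with Smu1, a gene on the opposite strand that stood at 63.4 to 89.1 CPM. With the copies' counts added the change was -0.49 ± 0.16.

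**Figure D3:**
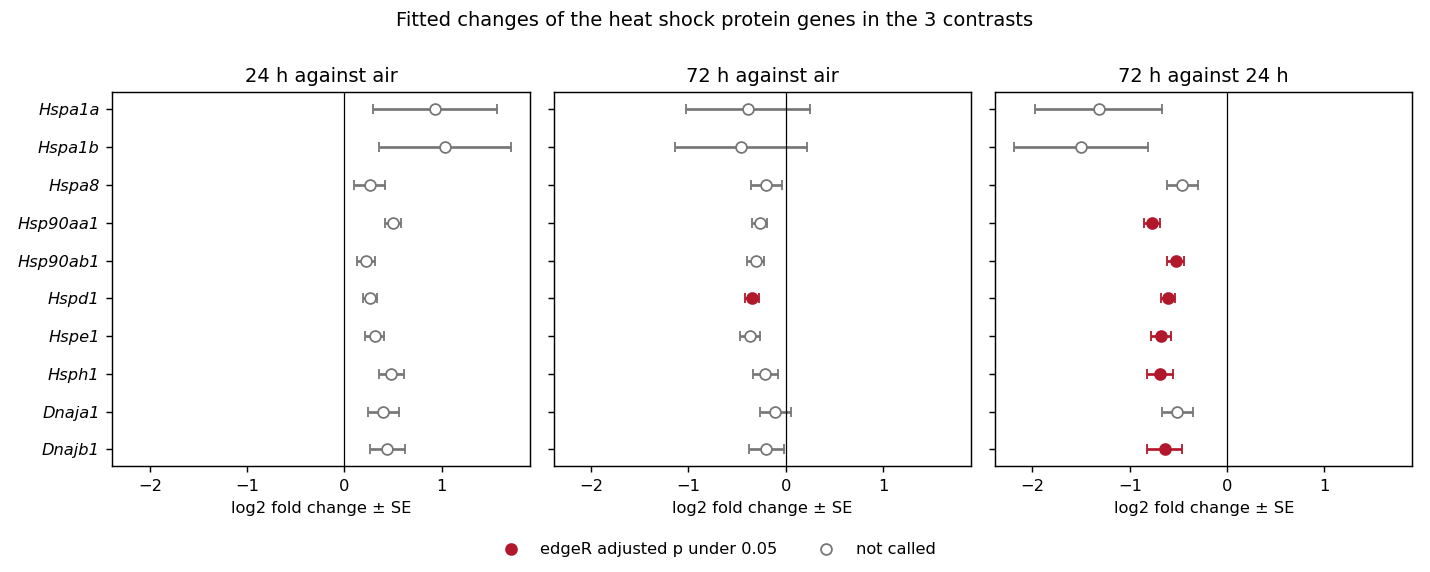
Log2 fold change with SE of each heat shock protein gene in 3 panels, from left to right 24 h over air, 72 h over air and 72 h over 24 h, with filled red points for genes called by edgeR and open points for the others. In the right panel 6 of 10 genes are called, in the middle panel Hspd1 and in the left panel none.

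Read as a list, the 24 h change against air was small and its direction shared. All 10 log2 fold changes were above 0, from 0.22 to 1.03 with a median of 0.42, while the median of all genes tested was 0.01 and 47.5% of them were below 0. No member was called by edgeR, where 0.00636% of all genes tested were called, although 7 of 10 had an unadjusted p under 0.05 (14.7% of all genes tested did). Limma voom called 0 members higher, but it called 0 of all 15713 genes tested higher, so its count carries nothing about the members. DESeq2 called 3 (3.43% of the genes it gave an adjusted p were called higher): Hsp90aa1 (DESeq2 adjusted p = 6.69e-08), Hspd1 (0.00649) and Hsph1 (0.0213). For 5 members all 24 h libraries stood above all air libraries, namely Hsp90aa1, Hsp90ab1, Hspd1, Hspe1 and Hsph1, and 10.4% of all genes tested did so. Without the 2 libraries with other cells 0 members and 0.102% of all genes tested were called higher, and Hsp90aa1, at 0.47 ± 0.07, came nearest (edgeR adjusted p = 0.0510).

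At 72 h against air all 10 log2 fold changes were below 0, from -0.46 to -0.11 with a median of -0.29, against -0.01 for all genes tested, of which 51.0% were below 0. Of the members 1 was called lower, where 3.77% of all genes tested were called lower, and 4 did not overlap air (Hsp90aa1, Hsp90ab1, Hspd1 and Hspe1), as was true of 22.1% of all genes tested. The share of all calls that were lower was 68.8%, with DESeq2 size factors 55.7% and with upper quartile scaling 35.8%. An unadjusted p under 0.05 was reached by 4 members and 25.3% of all genes tested. DESeq2 called 4 members lower, the 4 just named, and 7.98% of the genes it gave an adjusted p. Without air replicate 3, the air library with the highest level of 8 members, the estimates for Hspa1a, Hspa1b and Dnaja1 were 0.003, 0.003 and 0.007, so that their negative sign rested on that mouse.

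For 72 h against 24 h the log2 fold changes ran from -1.50 to -0.46 with a median of -0.66, against -0.03 for all genes tested, of which 53.1% were below 0. The 6 members called lower are 60.0% of the list, where 12.8% of all genes tested were called lower and 5.39% higher. The share of all calls that were lower was 70.3%, and 52.8% with upper quartile scaling. An unadjusted p under 0.05 was reached by 8 members and 33.3% of all genes tested. In 8 members, all but Hspa1a and Hspa1b, the 72 h libraries lay wholly below the 24 h libraries, as did those of 22.7% of all genes tested. Without the 2 libraries with other cells 5 were called (8.68% of all genes tested were then called lower), namely Hsp90aa1 (-0.67 ± 0.08), Hsp90ab1 (-0.44 ± 0.06), Hspd1 (-0.55 ± 0.07), Hspe1 (-0.56 ± 0.10) and Hsph1 (-0.64 ± 0.16). Without all 3 doubted libraries 4 were called, the genes just named other than Hsph1 (7.16% of all genes tested). Hsp90aa1, Hsp90ab1, Hspd1 and Hspe1 were called in each of the 9 fits that left out 1 library.

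Library by library, the order of mice was shared in part. Replicate 3 at 24 h was the highest of all 9 libraries for 6 members and replicate 2 at 24 h for 3, and both were among the top 3 for all 10. Replicate 1 at 24 h was among the top 3 for 5 members and among the bottom 3 for 2, Hspa1a and Hspa1b. Replicate 1 at 72 h was the lowest for 8 members and replicate 3 at 72 h for 0. In air, replicate 1 was among the bottom 3 for 6 members and replicate 3 among the top 3 for 4. The median log2 difference from the air mean was 0.15, 0.47 and 0.52 in the 24 h libraries and -0.42, -0.30 and -0.06 in the 72 h libraries. Replicate 2 at 24 h and replicate 1 at 72 h are the libraries carrying other cells, and their part in the level of single members was not tested beyond the fits without them.

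**Figure D4:**
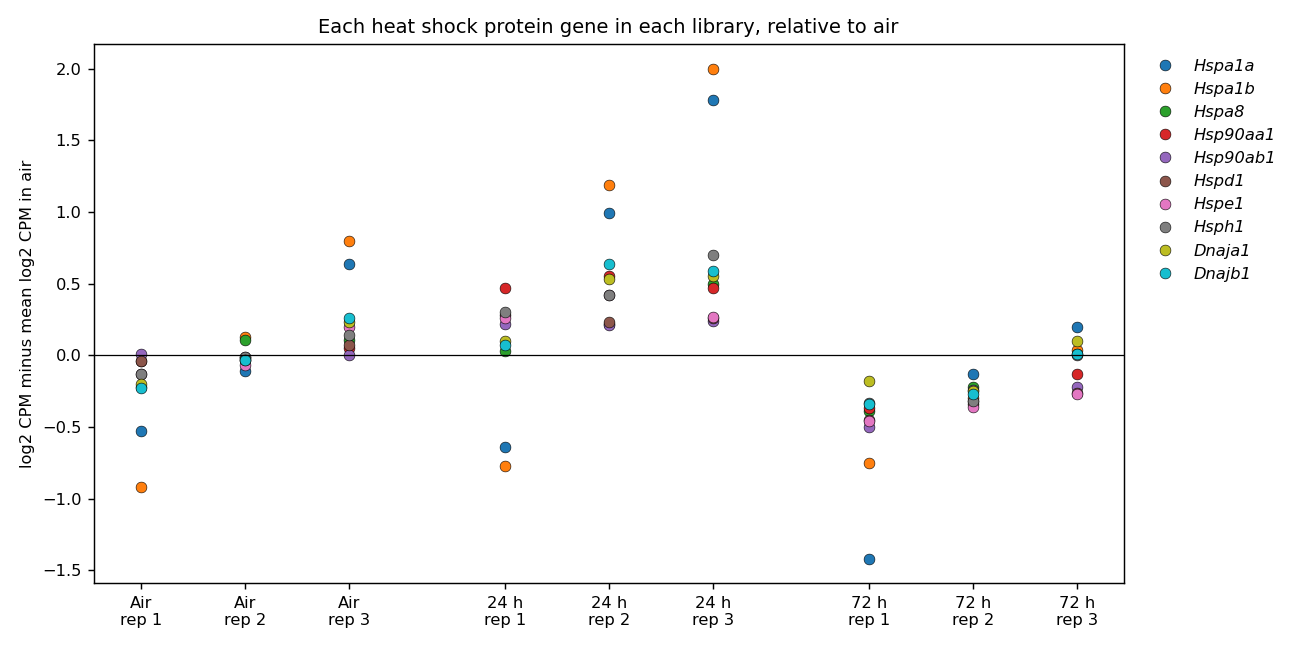
Log2 CPM of each heat shock protein gene in each of the 9 libraries minus that gene's mean log2 CPM in air, with 1 colour for each gene. Most genes lie above 0 in the 24 h libraries and all 10 lie below 0 in replicates 1 and 2 at 72 h, while in replicate 3 at 72 h only Hsp90aa1, Hsp90ab1, Hspd1 and Hspe1 do; Hspa1a and Hspa1b spread most, lying low in replicate 1 and high in replicates 2 and 3 at 24 h.

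Immediate early genes such as Fos, Jun and Egr1, which respond within minutes to handling of cells as well as to signals in the animal, were set beside these levels. The sum of 18 such genes was 935 to 1090 CPM in air, 924 to 1060 CPM at 24 h and 760 to 855 CPM at 72 h. Of the 18, 2 were called lower at 72 h against 24 h by edgeR, Jun (-0.61 ± 0.17, adjusted p = 0.0429) and Zfp36 (-0.56 ± 0.16, adjusted p = 0.0447), and 0 in the contrasts with air. The 2 are 11.1% of the list, below the 12.8% of all genes tested that were called lower. In direction, however, 17 of the 18 log2 fold changes in that contrast were below 0 and 1 above, where 53.1% of all genes tested were below 0. Their median was -0.54, against -0.03 for all genes tested and -0.66 for the heat shock protein genes. The part of the immediate early response, or of handling, in the heat shock protein levels was not tested.

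The wider chaperone network was followed in 7 lists with 64 genes, of which 59 were tested. At 24 h against air 0 of 59 were called by edgeR, where 0.00636% of all genes tested were. An unadjusted p under 0.05 was reached by 15, where 14.7% of all genes tested reached it. Limma voom called 0, and 0 of all genes tested higher. DESeq2 called 6 higher, where 3.43% of the genes it gave an adjusted p were called higher. It called 1 lower, for which the share of all genes is not given here. At 72 h against air 11 were called lower (18.6%, where 3.77% of all genes tested were) and 1 higher. The count called lower was 1 with upper quartile scaling and 5 with DESeq2 size factors. At 72 h against 24 h 24 were called lower (40.7%, where 12.8% of all genes tested were), 1 was called higher and 34 were not called. The median log2 fold changes over the 59 were 0.08, -0.16 and -0.22. Without the 2 libraries with other cells the count lower at 72 h against 24 h was 17 (8.68% of all genes tested were then called lower). It was 10 without replicate 2 at 72 h, and 15 without replicate 1 at 24 h or replicate 3 at 72 h. Over the 9 fits without 1 library 511 to 1960 of all genes tested were called lower, against 2008 in the main fit.

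**Figure D5:**
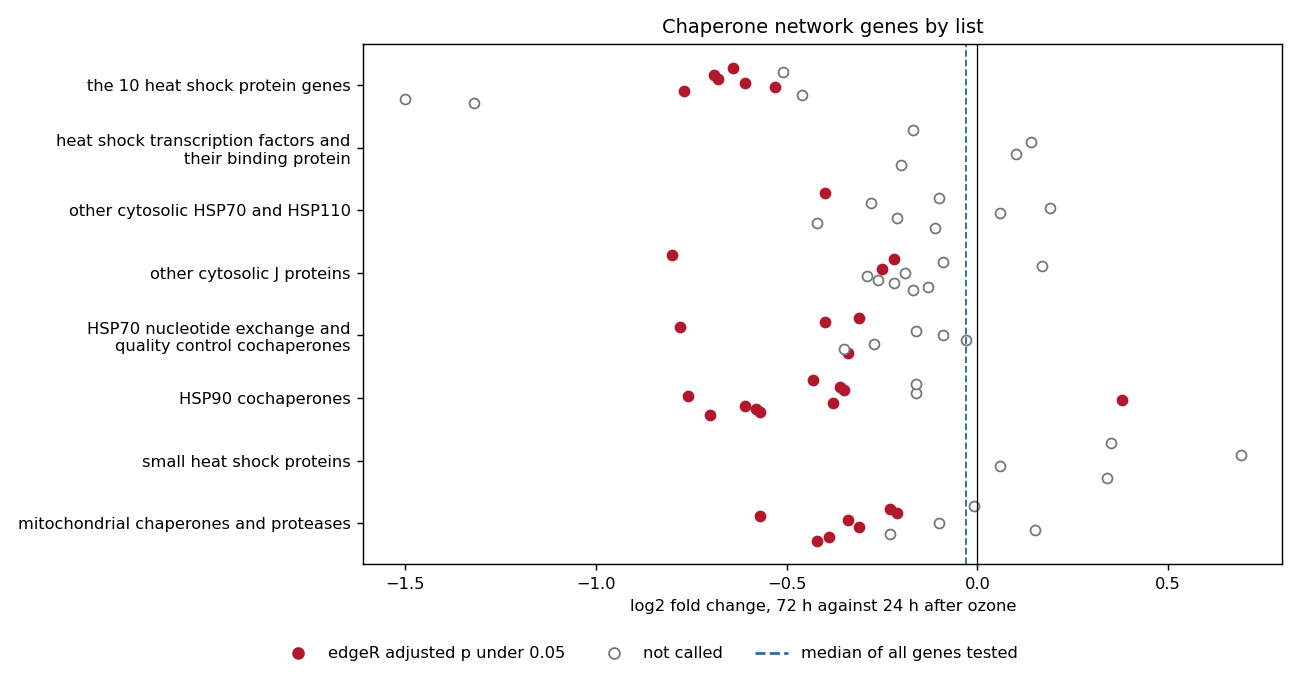
Log2 fold change for 72 h against 24 h of every tested gene in the heat shock protein set and the 7 other chaperone lists, filled red where called by edgeR, with a dashed line at the median of all genes tested, -0.03. Of the HSP90 cochaperones 9 are called lower, and of the small heat shock proteins none is called.

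HSP90 cochaperones had the largest share of called genes. Of 12, 9 were called lower and 1 higher at 72 h than at 24 h, where 12.8% of all genes tested were called lower and 5.39% higher. In all 11 log2 fold changes were below 0 and 1 above, with a median of -0.40. Fkbp4, an immunophilin that joins HSP90 to steroid receptors, was 124.5 ± 9.22 CPM in air, 150 ± 6.32 CPM at 24 h and 88.9 ± 4.49 CPM at 72 h, and fell by 0.76 ± 0.07 on the log2 scale. Stip1, the adaptor that hands clients from HSP70 to HSP90, was 95.4 ± 0.992, 123 ± 3.13 and 75.4 ± 6.22 CPM and fell by 0.70 ± 0.06. Ahsa1, which stimulates the ATPase of HSP90, and Ptges3, the p23 cochaperone, fell by 0.57 ± 0.07 and 0.61 ± 0.08. In edgeR the 4 had adjusted p = 0.00366, 0.00366, 0.00433 and 0.00599, and all 4 were called in each of the 9 fits without 1 library. The 1 gene that rose, named because it is the exception, was Cdc37l1 (0.38 ± 0.06).

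Cochaperones of HSP70 were called in part. Of 9 nucleotide exchange and quality control genes 4 were called lower at 72 h than at 24 h (44.4%, where 12.8% of all genes tested were). All 9 log2 fold changes were below 0, with a median of -0.31. In 7 the 72 h libraries lay wholly below the 24 h libraries, as did those of 22.7% of all genes tested. Bag1, a nucleotide exchange factor, was 86.4 ± 1.14, 90.5 ± 2.93 and 71.6 ± 4.09 CPM in air, at 24 h and at 72 h, falling by 0.34 ± 0.05 on the log2 scale between the last 2. Hspbp1, also an exchange factor, fell by 0.78 ± 0.16, the HSP70 adaptor St13 by 0.31 ± 0.07 and the ubiquitin ligase Stub1 by 0.40 ± 0.10. Over the 9 fits without 1 library Bag1 was called in 9, Hspbp1 in 7, St13 in 5 and Stub1 in 4.

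Of 11 other cytosolic J proteins 3 were called lower at 72 h than at 24 h, or 27.3% against 12.8% of all genes tested. Dnajc9, which also chaperones histones, was 34.2 ± 4.49, 48.8 ± 7.33 and 27.9 ± 2.495 CPM and fell by 0.80 ± 0.13. Dnajc2 and Dnajc8, which act at the ribosome and in splicing, fell by 0.25 ± 0.06 and 0.22 ± 0.06 and were called in 4 and 3 of the 9 fits without 1 library. Of 8 other HSP70 and HSP110 genes 1 was called lower, Hspa14, which fell by 0.40 ± 0.06. That share of 12.5% is near the 12.8% of all genes tested. Of the 8 log2 fold changes 6 were below 0 and 2 above, with a median of -0.16. The abundant HSP110 relative Hspa4 (241, 263 and 227 CPM as group means, chosen after its values were seen) was not called.

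In mitochondria the fall at 72 h reached beyond Hspd1 and Hspe1. Of 11 chaperone and protease genes 7 were called lower at 72 h than at 24 h (63.6%, against 12.8% of all genes tested). Against air 4 were called lower (36.4%, against 3.77%), and these calls are among those that upper quartile scaling reduced from 11 to 1. Hspa9, the mitochondrial HSP70, was 269 ± 8.98, 278 ± 22.05 and 208 ± 10.3 CPM in air, at 24 h and at 72 h. It fell by 0.42 ± 0.07 on the log2 scale from 24 h and by 0.37 ± 0.07 from air (edgeR adjusted p = 0.00956 and 0.0327). Trap1, the mitochondrial HSP90, fell by 0.39 ± 0.04 from 24 h, the disaggregase Clpb by 0.34 ± 0.06 and the protease Lonp1 by 0.23 ± 0.05. Lonp1 stood at 66.7 ± 1.79 CPM in air and 65.6 ± 1.80 CPM at 24 h. Of the fits without 1 library Hspa9 and Trap1 were called in 9 against 24 h and in 3 against air.

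The regulators and the small heat shock proteins held no called gene in any contrast by edgeR. Hsf1, the main heat shock transcription factor, was 30.4 ± 1.40 CPM in air, 30.9 ± 0.455 CPM at 24 h and 26.9 ± 1.94 CPM at 72 h (72 h against 24 h -0.20 ± 0.06, adjusted p = 0.0645). Hsbp1, which binds HSF1, was 97.8 ± 2.02, 94.2 ± 2.30 and 83.6 ± 4.72 CPM (72 h against air -0.23 ± 0.05, adjusted p = 0.0501). Of 8 small heat shock protein genes 4 were tested, and the most abundant, Hspb6 and Cryab, stood at 8.31 ± 0.394 and 1.29 ± 0.450 CPM in air with 72 h against 24 h at 0.06 ± 0.12 and 0.35 ± 0.33. The other tested members of that list, Hspb1 and Hspb8, were under 1 CPM in every library and had larger estimates, in the opposite direction to most of the network. Hspb1 was 0.0636 ± 0.0332 CPM in air, 0.354 ± 0.399 CPM at 24 h and 0.448 ± 0.0524 CPM at 72 h, and Hspb8 0.197 ± 0.0843, 0.3935 ± 0.3295 and 0.634 ± 0.121 CPM. In both genes all 72 h libraries stood above all air libraries, as did those of 17.5% of all genes tested. Their log2 fold changes of 72 h against air, 2.76 ± 0.80 and 1.68 ± 0.59, were not called (edgeR adjusted p = 0.0786 and 0.121). Over the 4 tested genes the median of 72 h against air was 0.98.

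The 5 genes outside the members whose levels over the 9 libraries followed them most closely were taken by Pearson r with the mean standardised level of the 10, among 9539 genes of at least 5 CPM. They were Chordc1 (r = 0.98), an HSP90 cochaperone of the list above, Hikeshi (0.98), which carries HSP70 into the nucleus after heat stress, the cyclin Ccne2 (0.97), Ciao2b (0.97), of the cytosolic iron-sulfur assembly machinery, and the deubiquitinase Uchl5 (0.96). Chordc1 was 58.8 ± 1.56, 68.9 ± 4.45 and 54.2 ± 3.88 CPM in air, at 24 h and at 72 h, and Hikeshi 12.8 ± 0.873, 14.8 ± 1.11 and 10.9 ± 0.919 CPM. These values describe 9 libraries in 3 groups and were picked as the highest, so they carry no test. In all 139 genes reached r of 0.9.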

How the data were processed

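RNA sequencing of lung macrophages covered 9 mice in 3 groups of 3 separate animals. The authors deposited 1 table of estimated counts per gene, not scaled to library size, 80.5% of them whole; by the submitters' processing notes Trimmomatic 0.39, FastQC, Salmon and DESeq2 were used with GRCm38.p6, while no source used here names the annotation, the options or the use of strand. GENCODE M21 matched 54107 of 54281 identifiers. Estimated counts were rounded and analysed in R 4.3.3 with edgeR 4.0.16 (filterByExpr, TMM, robust quasi-likelihood fit over all 9 libraries; SE taken as the absolute log2 change over the root of F). DESeq2 1.42.0 and limma 3.58.1 (voom) were alternatives, as were other scalings and filters, the replicate number as a block, only the 6 libraries compared, libraries left out, Hspa1a and Hspa1b summed, and pseudogene counts added. DESeq2 and the fits on fewer libraries used the same 15713 genes.

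The members and lists were chosen with earlier results of these data known. All members are named; of each other list the rule takes up to 4 called genes with the smallest adjusted p, or else the 2 most abundant. The fit was tested on simulated data with known changes. For 24 h against air it recovered 23.9% of 1.5-fold, 52.2% of 2-fold and 71.2% of 4-fold changes, with 8 of 106 calls false. For 72 h against 24 h these shares were 23.9%, 50.7% and 87.9%, with 1 of 109 calls false. A change of these sizes can thus go uncalled. Libraries of a group differed by more than sampling noise (chi-square per degree of freedom 7.23 to 134). Promoters are from RefSeq (GRCm38.p6); pseudogenes were transcripts aligned to a member at 80% identity or more over at least 50% of their length.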

Additional observations from a re-analysis of the deposited data

Results flagged for a closer look

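The effects at 24 h and at 72 h, each taken against the same air libraries, differed by the test of 72 h against 24 h in 6 heat shock protein genes: Hsp90aa1 (log2 difference -0.77), Hsp90ab1 (-0.53), Hspd1 (-0.61), Hspe1 (-0.68), Hsph1 (-0.69) and Dnajb1 (-0.64). The same held for named genes of the other lists. Among J proteins and HSP70 relatives the differences were -0.40 for Hspa14, -0.25 for Dnajc2, -0.22 for Dnajc8 and -0.80 for Dnajc9. Among HSP70 cochaperones they were -0.34 for Bag1, -0.78 for Hspbp1, -0.40 for Stub1 and -0.31 for St13. For the HSP90 cochaperones Stip1, Ahsa1, Ptges3 and Fkbp4 they were -0.70, -0.57, -0.61 and -0.76, and for the mitochondrial genes Hspa9, Trap1, Clpb and Lonp1 -0.42, -0.39, -0.34 and -0.23.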

How the results depend on the processing

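Every one of the 209 alternative values for the members kept its direction at 24 h against air and at 72 h against 24 h, and 206 of 209 did so at 72 h against air; the 3 that turned were Hspa1a, Hspa1b and Dnaja1 without air replicate 3 (ranges over the fits without 1 library -0.721 to 0.003, -0.801 to 0.003 and -0.226 to 0.007). Members called higher at 24 h against air were 3 by DESeq2, where 3.43% of the genes it gave an adjusted p were called higher. Members called lower at 72 h against air (1) were 0 with upper quartile scaling, with no filter on low counts and with the replicate block. They were also 0 without the 3 doubted libraries, 4 by DESeq2 (7.98% of the genes it gave an adjusted p), and 0 to 2 without 1 library. Over those fits without 1 library 2 to 806 of all genes tested were called lower, against 592 in the main fit. In the joint test (5) the members called were 0 to 5 without 1 library, 0 without replicate 2 at 72 h and 3 without replicate 1 at 72 h. Of all genes tested it called 30 to 2242 over the fits without 1 library, against 2081 in the main fit. Members called lower at 72 h against 24 h (6) were 5 with DESeq2 size factors, upper quartile scaling, no filter or only the 6 libraries compared (Dnajb1 lost). They were 8 by DESeq2 (Hspa8 and Dnaja1 gained), and 4 to 7 without 1 library. All genes tested called lower without 1 library were 511 to 1960, against 2008 in the main fit.

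Of the other chaperones at 24 h against air DESeq2 called 6 higher, where 3.43% of the genes it gave an adjusted p were called higher, and 1 lower. At 72 h against air the count higher (1) was 0 with no filter or with the block, 2 by DESeq2, 3 with only the 6 libraries compared, 3 without the 2 libraries and 0 to 3 without 1 library. The count lower (11) was 5 with DESeq2 size factors or the 1 CPM filter, 1 with upper quartile scaling, 2 with no filter, 1 with the block, 6 without the 2 libraries, 1 without the 3, and 0 to 11 without 1 library. At 72 h against 24 h the count higher (1) was 2 with upper quartile scaling, the 1 CPM filter or DESeq2, 3 without the 2 libraries, 2 without the 3, and 1 to 3 without 1 library; the count lower (24) was 10 to 24 without 1 library. In the joint test (21) the count was 9 without the 3 libraries and 1 to 22 without 1 library. Over the fits without 1 library, 26 to 811 of all genes tested were called higher and 2 to 806 lower at 72 h against air. At 72 h against 24 h they were 147 to 1017 higher and 511 to 1960 lower, and 30 to 2242 in the joint test. The causes were not tested.

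Same-numbered libraries had correlations of -0.61 to 0.48, over 0.1 in 2 of 9 pairs, and 2 libraries correlated best with their own number, so the numbers were not taken to pair mice. With the replicate block 3 members and 3 other chaperones were called in the joint test, and 9 members were called lower at 72 h against 24 h. The share of all genes called with the block is not given here, so these counts do not show whether the lists gained calls beyond all genes. In this section a count without such a share describes the fit and is not read as a result about its list. Of all calls at 72 h against air 68.8% were lower, and 55.7% and 35.8% with DESeq2 size factors and upper quartile scaling; at 72 h against 24 h the shares were 70.3%, 65% and 52.8%. The spread between 3 mice limits Hspa1a and Hspa1b most.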
